A study of Oryza sativa with 14 samples.

Results

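A set of 107 probe sets on the rice genome array read lower in roots and higher in shoots of the mhz4 mutant than in wild type (WT), or the other way round. They were chosen on log2(signal + 8) by 4 differences, mhz4 minus WT in root and in shoot, each in ethylene and in air. A member had to be at least 1.5-fold below WT in mhz4 roots and at least 1.5-fold above WT in mhz4 shoots in both gases, or to show the reverse in both gases. It also had to reach a signal of 50 on at least 1 root array and 1 shoot array, which 19107 of 57258 probe sets did. Of these, 95 were lower in mhz4 roots and higher in mhz4 shoots (called root-low below), and 12 were higher in mhz4 roots and lower in mhz4 shoots (root-high below).

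The study compared etiolated seedlings of the rice mutants mhz4, mhz5 and mhz1 with WT, after ethylene or in air. Roots of mhz4, mhz5, mhz1 and WT and shoots of mhz4, mhz5 and WT were each hybridised once per gas, which gave 14 arrays of total RNA, 8 from roots and 6 from shoots. Ethylene was given at 10 ppm for 8 h at 28 °C in the dark to 3-day-old seedlings, and seedlings kept in air served as the control. Every group was 1 array labelled as biological replicate 1, so no group has a spread of its own. The labels name no WT cultivar, no mutant allele and no number of seedlings behind an array, and shoots of mhz1 were not analysed here. The WT root titles carry the mark mb, whose meaning is not given in the sources used here.

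As background, MHZ4 encodes a chloroplast protein needed to make abscisic acid, and MHZ5 encodes a carotenoid isomerase that acts earlier in the same route. MHZ1 encodes a histidine kinase that acts in ethylene signalling in rice roots. In dark-grown rice seedlings ethylene shortens roots and lengthens coleoptiles, and roots of all these mutants respond weakly to it.

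MHZ4 itself had a signal of 45.3 in ethylene and 46.9 in air in mhz4 roots, against 101 in ethylene and 116 in air in WT roots. In mhz4 shoots its signal was 60.6 in ethylene and 49.2 in air, against 134 in ethylene and 163 in air in WT shoots. The summed signal of 9 shoot markers was 90.0 to 559 on root arrays and 22631 to 36364 on shoot arrays. The highest root value was that of mhz4 roots in ethylene, where RBCS, the small subunit of Rubisco, read 373 against 29.6 to 47.9 on the other root arrays. Shoot markers summed to 30810 in ethylene and 36364 in air in mhz4 shoots, against 24140 in ethylene and 22631 in air in WT shoots. The summed signal of 23 root markers was 17468 to 29664 on root arrays and 3139 to 5139 on shoot arrays, and that of 10 seed markers was 203 to 355 on every array. PDC1, a pyruvate decarboxylase gene of alcoholic fermentation, read 1811 in WT shoots in air and 14.3 to 92.4 on the other 13 arrays. The part of these differences in the results below was not tested. Since these are bulk tissues, fewer cells of a type and less RNA per cell cannot be told apart.

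The root-low members made up 0.497% and the root-high members 0.0628% of the 19107 bright probe sets. For comparison, 0.675% were lower and 0.461% were higher in mhz4 on all 4 pairs of arrays. Taken by tissue, 4.38% were lower and 1.67% higher in mhz4 roots in both gases, and 3.3% were lower and 5.22% higher in mhz4 shoots in both gases. These counts follow from the rule and carry no test.

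**Figure D1:**
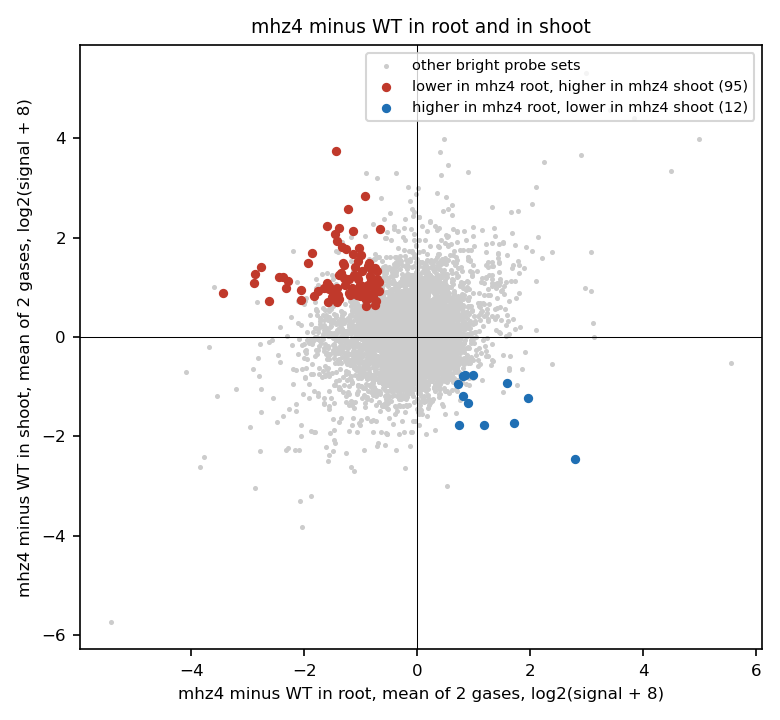
Each point is a bright probe set, with mhz4 minus WT in root on the horizontal axis and in shoot on the vertical axis, both as log2(signal + 8) averaged over both gases. The 95 root-low members (red) fill the upper left and the 12 root-high members (blue) the lower right, as the rule fixes.

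Among the root-low members, the median difference of mhz4 from WT was -1.01 in ethylene (-2.93 to -0.59) and -1.25 in air (-3.98 to -0.61) in roots. In shoots it was 1.04 in ethylene (0.62 to 3.34) and 1.08 in air (0.59 to 4.13). Their median signal was 80.9 in ethylene and 67.3 in air in mhz4 roots, against 209 in ethylene and 212 in air in WT roots. In mhz4 shoots it was 275 in ethylene and 226 in air, against 125 in ethylene and 94.9 in air in WT shoots. Root minus shoot had a median of -1.50 in mhz4, -0.43 in mhz5 and 0.87 in WT; the rule itself lowers the mhz4 value against the WT one, so these medians are a description. For 40 of the 95 members WT was at least 1.5-fold higher in root than in shoot and mhz4 at least 1.5-fold higher in shoot than in root, a direction that the rule fixes.

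Among the root-high members, mhz4 minus WT had a median of 1.06 in ethylene and 0.92 in air in roots, and of -0.83 in ethylene and -1.35 in air in shoots. Their median signal was 569 in ethylene and 364 in air in mhz4 roots, against 172 in ethylene and 109.8 in air in WT roots. In mhz4 shoots it was 91.7 in ethylene and 55.9 in air, against 176 in ethylene and 195 in air in WT shoots. Root minus shoot had a median of 2.19 in mhz4, 1.83 in mhz5 and 0.06 in WT.

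**Figure D2:**
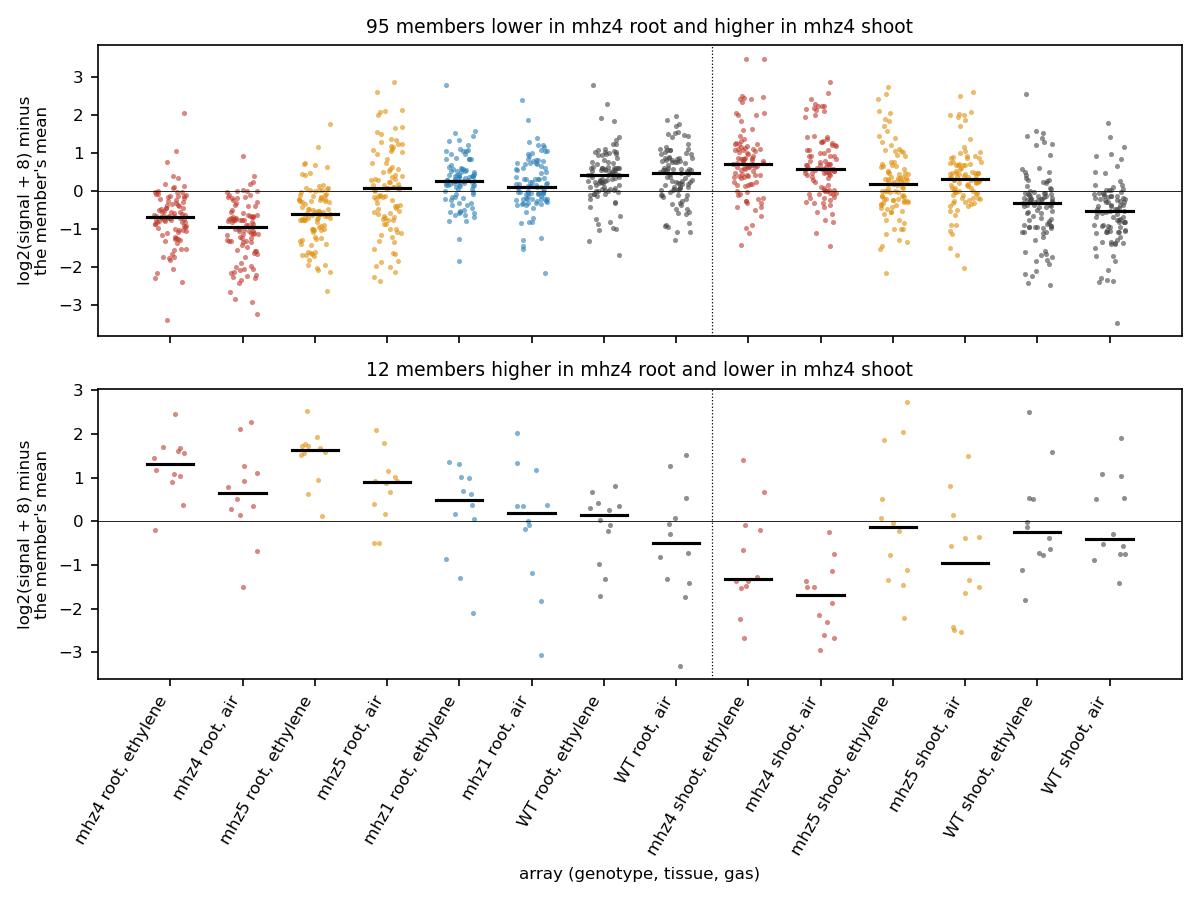
Each point is a member on 1 array, as log2(signal + 8) minus that member's mean over the 14 arrays, and black bars are medians. The root-low members (top) sit low in mhz4 roots, in mhz5 roots in ethylene and in WT shoots, and the root-high members (bottom) sit lowest in mhz4 shoots.

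The probe-set annotation gave 1 gene for 72 of the 95 root-low probe sets (71 genes) and for 9 of the 12 root-high ones, and the others are not named here. Only 13 root-low genes and 3 root-high genes carry a gene name, so the named genes are a small share of the members. Of the root-low probe sets, 25 have a suffix that marks a probe set matching several transcripts, as do 26.9% of the bright probe sets. The root-low genes lay on every one of the 12 chromosomes, with the most, 11, on chromosome 3. Gene order was taken from the rice assembly ASM3414082v1, whose relation to the array's own annotation is not given, so only neighbours are stated.

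Some of the members farthest below WT in mhz4 roots were genes of diterpenoid phytoalexins, antimicrobial compounds that rice makes in defence and releases from its roots. CPS4, which encodes the syn-copalyl diphosphate synthase that opens the momilactone route, read 104 in ethylene and 17.1 in air in mhz4 roots, against 338 in ethylene and 212 in air in WT roots. In mhz4 shoots CPS4 read 334 in ethylene and 192 in air, against 131 in ethylene and 84.9 in air in WT shoots. Each mhz4 root value was thus below both WT root values and each mhz4 shoot value above both WT shoot values. Within each gas the rule fixes this order, so it is a description only.

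CYP99A3, a cytochrome P450 of the momilactone route, lies next to CPS4 on chromosome 4. It read 308 in ethylene and 49.0 in air in mhz4 roots, against 1139 in ethylene and 831 in air in WT roots, and 534 in ethylene and 638 in air in mhz4 shoots, against 227 in ethylene and 245 in air in WT shoots. The other measured genes of this cluster were not members, because at least 1 of their differences from WT stayed under the threshold. MAS, the momilactone A synthase gene, differed from WT by -0.08 in ethylene and -2.28 in air in mhz4 roots and by 1.05 in ethylene and 0.72 in air in mhz4 shoots. KSL4, the syn-pimaradiene synthase gene, differed by -0.72 in ethylene and -2.52 in air in mhz4 roots and by 0.79 in ethylene and 0.30 in air in mhz4 shoots. CYP99A2, another P450 gene of the cluster, differed by -0.53 in ethylene and -2.48 in air in mhz4 roots and by 1.57 in ethylene and 0.93 in air in mhz4 shoots. All 5 cluster genes therefore had mhz4 differences of opposite sign in the 2 tissues, and MAS and CYP99A2 missed the rule in ethylene roots and KSL4 in air shoots. ARP9, the neighbour on the other side of CPS4, differed from WT by -0.31 to 0.22.

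**Figure D3:**
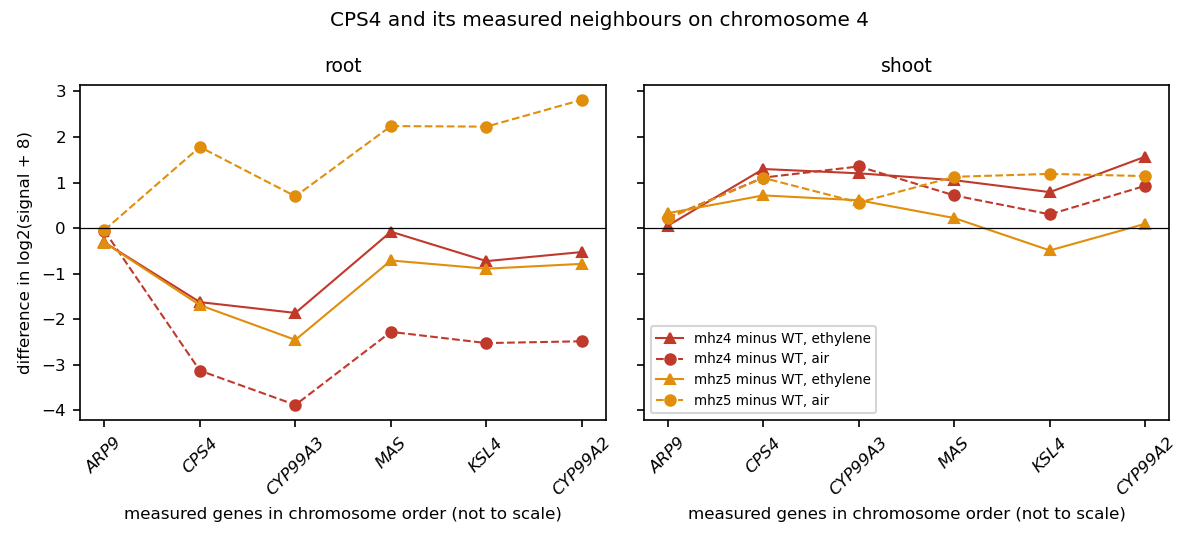
Differences in log2(signal + 8) from WT of the same gas are shown for CPS4 and its bright neighbours in roots (left) and shoots (right). The mhz4 lines (red) lie below 0 in root and above 0 in shoot for the 5 cluster genes, and mhz5 in air (dashed orange) lies above 0 in root.

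Other members lay beside genes of such routes. LOC4329723 lies between CYP76M8 and KSL7 on chromosome 2, in the region where rice carries its phytocassane genes. It read 55.1 in ethylene and 7.74 in air in mhz4 roots, against 176 in ethylene and 241 in air in WT roots, and 322 in ethylene and 215 in air in mhz4 shoots, against 92.7 in ethylene and 97.1 in air in WT shoots. Its neighbour KSL7, a diterpene synthase gene, differed from WT by -0.15 in ethylene and -1.22 in air in mhz4 roots and by 1.67 in ethylene and 0.33 in air in mhz4 shoots, and was no member. CYP76M8, on the other side, was no member either, with -0.0054 in ethylene and -0.27 in air in mhz4 roots. Its mhz4 shoot differences were 0.58 in ethylene and 0.02 in air. CYP71Z7, close by, differed by 0.09 in ethylene and -0.30 in air in mhz4 roots, so this region did not share the pattern throughout. CYP701A9, a P450 related to ent-kaurene oxidase, had low signals of 10.7 in ethylene and 4.93 in air in mhz4 roots, against 45.9 in ethylene and 43.7 in air in WT roots. In mhz4 shoots CYP701A9 read 53.1 in ethylene and 41.3 in air, against 19.2 in ethylene and 22.8 in air in WT shoots. CYP701A8, next to CYP701A9 on chromosome 6, was no member. It differed from WT by -1.19 in ethylene and -2.49 in air in mhz4 roots, and by 0.70 in ethylene but -0.85 in air in mhz4 shoots.

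In all, 3 of the 12 bright genes of a diterpenoid list were root-low members and 0 were root-high members. Over all bright probe sets 0.497% were root-low and 0.0628% root-high, and these shares also stand beside the list counts below. CPS1, the copalyl diphosphate synthase gene of gibberellin synthesis in rice, lay just outside the root-high members, with differences of 0.56 in ethylene and 2.98 in air in mhz4 roots and of -1.02 in ethylene and -0.92 in air in mhz4 shoots. The diterpenoid list was drawn up after these values had been seen.

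Counting pairs of members at most 5 protein-coding genes apart, there were 6 such pairs, which took in 11 of the 71 root-low genes. The share of such pairs among other genes was not computed, so the count only describes where these genes lie. LOC4343026 and LOC4343027 are adjacent on chromosome 7. LOC4343026 read 36.5 in ethylene and 15.7 in air in mhz4 roots, against 330.2 in ethylene and 359.5 in air in WT roots, and 73.1 in ethylene and 82.4 in air in mhz4 shoots, against 30.5 in ethylene and 48.2 in air in WT shoots. LOC4352482, LOC4352487 and LOC4352488 lie within 6 places of one another on chromosome 12. LOC4352487 read 1225 in ethylene and 366 in air in mhz4 roots, against 2957 in ethylene and 2661 in air in WT roots, and 2884 in ethylene and 2637 in air in mhz4 shoots, against 1258 in ethylene and 1625 in air in WT shoots. PBZ1, a pathogenesis-related gene 5 places from LOC4352487, was no member: it differed from WT by -2.40 in ethylene and -3.29 in air in mhz4 roots, but by 0.40 in air in mhz4 shoots.

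Of the 17 bright genes of the defence list, 2 were root-low members. GER3, a germin-like protein gene, read 48.5 in ethylene and 71.2 in air in mhz4 roots, against 237 in ethylene and 454 in air in WT roots. In mhz4 shoots GER3 read 284 in ethylene and 419.7 in air, against 132 in ethylene and 219.9 in air in WT shoots. Its root values were low in both carotenoid-route mutants, since mhz5 roots read 41.7 in ethylene and 80.2 in air while mhz1 roots read 170.3 in ethylene and 236 in air. Cht11, a chitinase gene, read 23.4 in ethylene and 15.8 in air in mhz4 roots, against 48.2 in ethylene and 76.9 in air in WT roots, and 403 in ethylene and 434 in air in mhz4 shoots, against 183 in ethylene and 69.3 in air in WT shoots.

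SAUR39, an early auxin-response gene whose product limits auxin synthesis and transport in rice, was the only member among 44 bright genes of the auxin list. It read 17.5 in ethylene and 14.1 in air in mhz4 roots, against 52.9 in ethylene and 42.6 in air in WT roots. In mhz4 shoots SAUR39 read 218 in ethylene and 217 in air, against 26.8 in ethylene and 32.8 in air in WT shoots. The shoot part of its pattern was thus the larger one, and mhz5 shoots lay between the others at 109 in ethylene and 105 in air.

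CIPK23, a kinase that works with calcineurin B-like calcium sensors in potassium and nitrate uptake, read 1463 in ethylene and 1108 in air in mhz4 roots, against 2336 in ethylene and 2066 in air in WT roots. In mhz4 shoots CIPK23 read 984 in ethylene and 751 in air, against 571 in ethylene and 423 in air in WT shoots. It stayed higher in root than in shoot in all 3 genotypes, so the difference between the tissues narrowed in mhz4 without turning. CIPK5, a kinase of the same family, differed from WT by -0.95 in ethylene and -1.63 in air in mhz4 roots. Its mhz4 shoot differences were 0.96 in ethylene and 1.44 in air. Root signals of CIPK5 were low, 13.8 in ethylene and 11.9 in air in mhz4, against 34.2 in ethylene and 53.6 in air in WT. It reached the signal floor in roots only through WT roots in air, an array that the rule needs to be high. CML8, a calmodulin-like gene, differed by -0.92 in ethylene and -0.90 in air in mhz4 roots and by 0.95 in ethylene and 1.03 in air in mhz4 shoots.

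The other named root-low genes act in transport, cysteine synthesis, chlorophyll breakdown and antiviral defence. YSL13, of the family of metal-chelate transporters, was the only member among 38 bright genes of the transport list and differed from WT by -0.77 in ethylene and -0.86 in air in mhz4 roots and by 1.31 in ethylene and 1.03 in air in mhz4 shoots. SAT1, a serine acetyltransferase gene of cysteine synthesis, differed by -0.70 in ethylene and -0.93 in air in mhz4 roots and by 1.52 in ethylene and 1.23 in air in mhz4 shoots. NYC1, which encodes a chlorophyll b reductase that starts the breakdown of chlorophyll b, differed by -0.60 in ethylene and -1.33 in air in mhz4 roots and by 0.62 in ethylene and 1.17 in air in mhz4 shoots. AGO18, an argonaute gene of antiviral defence in rice, differed by -0.65 in ethylene and -0.70 in air in mhz4 roots and by 1.04 in ethylene and 1.18 in air in mhz4 shoots.

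**Figure D4:**
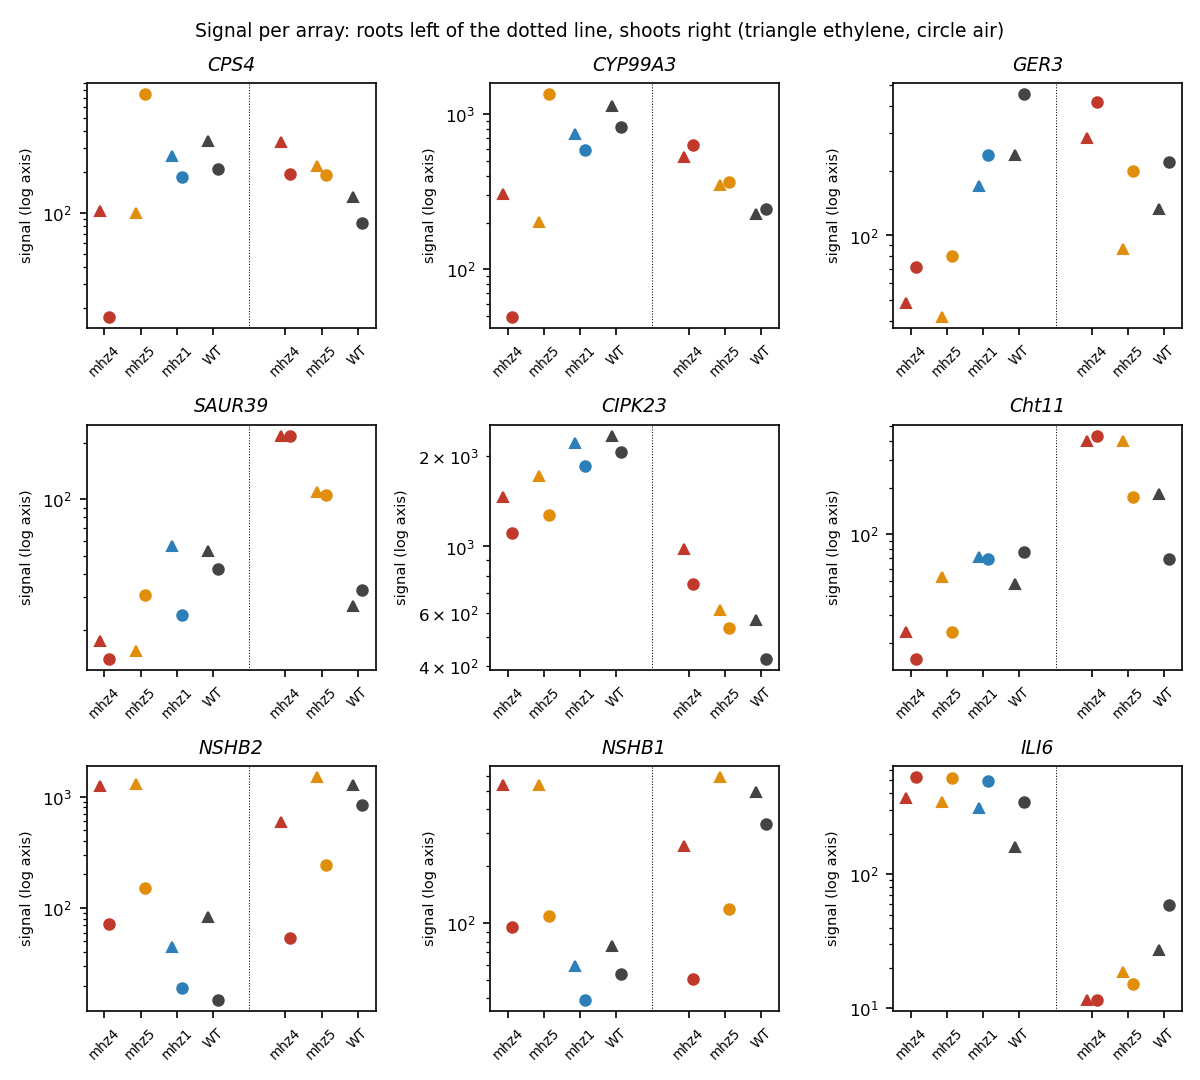
Signals on each array (log axis) are shown for 6 root-low genes (top and middle rows) and 3 root-high genes (bottom row), with ethylene as triangles and air as circles, roots left and shoots right of the dotted line. In the bottom row NSHB1 and NSHB2 are high in mhz4 and mhz5 roots in ethylene, and ILI6 is low in every shoot.

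Among the 12 root-high members the 2 non-symbiotic haemoglobin genes had the largest mhz4 differences in ethylene roots. These haemoglobins bind oxygen tightly and remove nitric oxide, and are known from plants short of oxygen. NSHB2 read 1236 in ethylene and 72.4 in air in mhz4 roots, against 82.9 in ethylene and 14.8 in air in WT roots. In mhz4 shoots NSHB2 read 592 in ethylene and 53.6 in air, against 1286 in ethylene and 843 in air in WT shoots. In mhz4 both air arrays were low, whereas in WT both shoot arrays were high and both root arrays low.

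NSHB1 read 534 in ethylene and 95.1 in air in mhz4 roots, against 76.0 in ethylene and 54.1 in air in WT roots, and 256 in ethylene and 50.6 in air in mhz4 shoots, against 494 in ethylene and 334 in air in WT shoots. The NSHB1 probe set has a suffix that marks a match to several transcripts, so signal shared with NSHB2 cannot be told apart. The high air value in shoots is that of WT shoots in air, the array with the high PDC1 signal, and its part in these differences was not tested. On the ethylene arrays alone NSHB2 differed by 3.77 in roots and -1.11 in shoots, and NSHB1 by 2.69 and -0.93. They were the only members among 10 bright genes of a list of haemoglobins and low-oxygen genes drawn up after the values had been seen. A sucrose synthase gene of that list, OsSUS4, ran the other way and missed the root-low rule on 1 difference, with -0.52 in ethylene and -2.29 in air in mhz4 roots and 1.76 in ethylene and 1.68 in air in mhz4 shoots.

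ILI6, an atypical bHLH protein gene that promotes grain length, read 371 in ethylene and 529 in air in mhz4 roots, against 158 in ethylene and 346 in air in WT roots. In mhz4 shoots ILI6 read 11.5 in ethylene and 11.5 in air, against 27.4 in ethylene and 58.9 in air in WT shoots. ILI6 was higher in root than in shoot in mhz4, mhz5 and WT, which the haemoglobin genes were only in mhz4. The other 9 root-high members carry no gene name here. LOC4349324 read 4374 in ethylene and 3031 in air in mhz4 roots, against 2721 in ethylene and 1739.8 in air in WT roots, and 1853 in ethylene and 427 in air in mhz4 shoots, against 3057 in ethylene and 3042 in air in WT shoots.

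The mhz5 and mhz1 differences share the WT arrays with the mhz4 differences, so they are given beside them as values only. For the root-low members mhz5 minus WT had a median of -0.93 in ethylene (-3.51 to 0.12) and -0.45 in air (-3.23 to 2.45) in roots, and of 0.57 in ethylene and 0.84 in air in shoots. Their mhz1 minus WT medians in roots were -0.11 in ethylene and -0.24 in air. For the root-high members mhz5 minus WT had a median of 1.30 in ethylene and 0.91 in air in roots, and of -0.23 in ethylene and -0.92 in air in shoots, and mhz1 minus WT had a median of 0.37 in ethylene and 0.54 in air in roots. Over all bright probe sets these mhz5 medians lay between -0.06 and 0.08, and the mhz1 medians were 0.00072 in ethylene and -0.03 in air. Over the same probe sets mhz4 minus WT had medians of -0.07 in ethylene and -0.04 in air in roots. In shoots these mhz4 medians were 0.04 in ethylene and 0.01 in air.

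The array of mhz5 roots in air stood apart for part of the root-low members. It was the highest of the 8 root arrays for 23 of the 95 members and at least 2-fold above every other root array for 6. The array of WT roots in air was the highest for 34 members and at least 2-fold above the others for 1. These 6 were CPS4, CYP701A9, LOC4329723, LOC4341261, LOC4327653 and 1 probe set without a gene. CYP701A9 reached the signal floor of 50 in roots only through this array, and in shoots only through mhz4 shoots in ethylene (53.1). The rule needs mhz4 shoots to be high, so CYP701A9 became a member only through an array that the rule used. Over probe sets that reached the floor on another root array, a condition added after the values were seen, the array of mhz5 roots in air was the highest for 22 of 94 root-low members (23.4%), against 7.93% of all bright probe sets, and at least 2-fold above the others for 5 (5.32%), against 0.178%. The rule keeps mhz4 roots from being highest among these members, which raises the shares of the other arrays. The 2 sets of shares are therefore not like for like and only describe the arrays. CPS4 read 99.2 in ethylene and 746 in air in mhz5 roots, and LOC4329723 read 37.6 in ethylene and 1062 in air. CYP99A3, with 201 in ethylene and 1351 in air in mhz5 roots, and PBZ1, with 171 in ethylene and 2438 in air, were likewise highest of the root arrays there. CPS4, CYP99A3 and LOC4329723 were thus below WT in mhz5 roots in ethylene and above WT in mhz5 roots in air, on 1 array each. CYP76M8, the neighbour of LOC4329723, differed from WT by 0.03 in ethylene and 0.61 in air in mhz5 roots.

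Tests were confined to quantities the rule did not use, from 1 limma model of the 14 arrays fitted to 23237 probe sets. In this model a term was called at an adjusted p under 0.05 (Benjamini-Hochberg over all probe sets), and the spread came from how far genotypes differed in their response to ethylene. All 107 members passed its filter. The rule keeps probe sets whose mhz4 difference had 1 sign in both gases, which narrows the spread of the members in those arrays, so each count is also given without mhz4 or without mhz4 and WT where it changed by over 1.5 times. The fit without mhz4 and WT has shoots of mhz5 alone, so its ethylene counts that use shoots are left out.

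The first test set mhz5 against mhz1 in roots, on 4 arrays that the rule did not use. Of the 95 root-low members 23 were lower in mhz5 and 0 higher (2 at an unadjusted p under 0.05), where the background was 5.02% lower and 2.01% higher over all probe sets. Their median difference was -0.51, against -0.03 over all probe sets tested. Of the 12 root-high members 4 were higher in mhz5 and 0 lower (0 also at an unadjusted p under 0.05), with a median of 0.74.

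In this contrast GER3 was lower in mhz5 roots by a log2 difference of -1.66 ± 0.16 (SE, limma adjusted p = 0.00131). CML8 (-0.86 ± 0.17), NYC1 (-1.35 ± 0.27) and CIPK23 (-0.45 ± 0.086) were lower as well, with limma adjusted p = 0.0228, 0.0241 and 0.0198. LOC4334643, an unnamed gene and a root-low member, was lower by -2.60 ± 0.19 (limma adjusted p = 0.000302), with 157 in ethylene and 102 in air in mhz5 roots against 1053 in ethylene and 622 in air in mhz1 roots. LOC9268371 was lower by -2.63 ± 0.28 (limma adjusted p = 0.00195), with 88.4 in ethylene and 117 in air in mhz5 roots against 676 in ethylene and 669 in air in mhz1 roots. For both genes no mhz5 root value overlapped an mhz1 root value. Each side had only 1 array per gas, and the share of all probe sets that separate in this way was not computed. NSHB2 was higher in mhz5 roots by 3.59 ± 0.73 (limma adjusted p = 0.0246), with 1296 in ethylene and 152 in air against 44.9 in ethylene and 19.2 in air in mhz1 roots. NSHB1 missed the threshold at 2.17 ± 0.56 (limma adjusted p = 0.0566).

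The momilactone genes gave no call in this contrast: CPS4 differed by 0.33 ± 0.90 and CYP99A3 by -0.33 ± 0.90 (limma adjusted p = 0.874 for each), with the split between the 2 mhz5 root arrays in their error. Without mhz4 in the fit 12 root-low and 3 root-high members were called, with a background of 2.67% lower and 0.934% higher, and without mhz4 and WT 11 and 1, with a background of 1.14% lower and 0.396% higher. GER3, LOC4334643 and LOC9268371 kept their calls in all of these fits, while NSHB2 was not called without mhz4 and WT (limma adjusted p = 0.0591). The fit without mhz4 and WT had 1 residual degree of freedom, so its counts and calls are only a weak check. CIPK23 and CML8 lost theirs in both fits (limma adjusted p = 0.0613 and 0.0653 without mhz4, 0.106 and 0.0847 without mhz4 and WT), and NYC1 lost its call without mhz4 (limma adjusted p = 0.072).

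**Figure D5:**
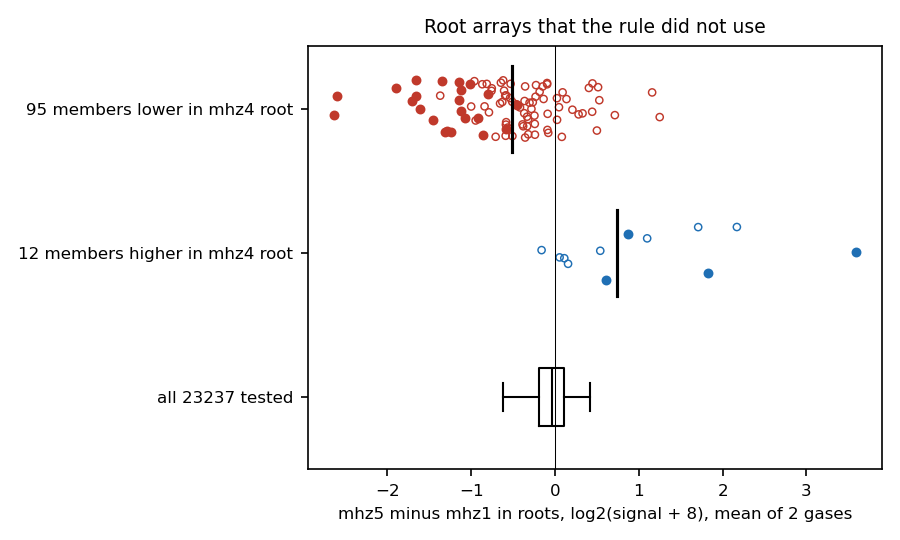
The horizontal axis is mhz5 minus mhz1 in roots on the log2(signal + 8) scale, with filled points called by limma, open points not called and black bars at the medians. The box for all probe sets spans the quartiles with whiskers at the 5th and 95th percentiles, and the root-low members lie mostly left of 0 with a median of -0.51.

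The second test set root against shoot within mhz5. Of the root-low members 16 were higher and 40 lower in mhz5 root than in mhz5 shoot, where the background was 40.3% higher and 29.5% lower. Their median was -0.43, against 0.13 over all probe sets tested. Of the root-high members 7 were higher and 0 lower in mhz5 root (0 also at an unadjusted p under 0.05), with a median of 1.83. Cht11 was lower in mhz5 root by -2.63 ± 0.39, SAUR39 by -1.92 ± 0.32, CIPK5 by -1.54 ± 0.20, AGO18 by -1.45 ± 0.20 and GER3 by -1.09 ± 0.16 (limma adjusted p = 0.000341, 0.000636, 0.000147, 0.000203 and 0.00035). NYC1 and CML8 were lower too, by -1.16 ± 0.27 and -0.65 ± 0.17 (limma adjusted p = 0.00474 and 0.00856). The CIPK5 call rests on low signals, since it read 11.8 in ethylene and 11.8 in air in mhz5 roots, below the signal floor. In mhz5 shoots CIPK5 read 39.9 in ethylene and 61.1 in air. CIPK23 and YSL13 were higher in mhz5 root, by 1.35 ± 0.086 and 0.94 ± 0.17 (limma adjusted p = 1.88e-06 and 0.000921). ILI6 was higher in mhz5 root by 4.12 ± 0.25 (limma adjusted p = 1.32e-06), with 347 in ethylene and 518 in air in mhz5 roots against 18.8 in ethylene and 15.1 in air in mhz5 shoots. NSHB2 was not called in this contrast (-0.42 ± 0.73, limma adjusted p = 0.623).

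Ethylene against air was the third quantity, and it is balanced against the mhz4 differences of the rule. In roots, 3 root-low members rose and 6 fell, where the background was 2.13% higher and 2.78% lower, and 5 of the 12 root-high members rose and 0 fell (2 at an unadjusted p under 0.05). The median effect was -0.03 for the root-low and 0.60 for the root-high members. GER3 fell by 0.67 on the log2 scale (SE 0.11, limma adjusted p = 0.0136) and CIPK23 rose by 0.31 ± 0.061 (limma adjusted p = 0.0237). NSHB2 rose by 2.48 ± 0.52 (limma adjusted p = 0.0313) and was higher in ethylene in each of the 4 root genotypes. Without mhz4 only 4 root-low and 3 root-high members were called, with a background of 0.835% higher and 1.36% lower, and CIPK23 and NSHB2 lost their calls (limma adjusted p = 0.166 and 0.112). Without the WT root air array GER3 and NSHB2 lost theirs (limma adjusted p = 0.0596 and 0.0769). Leaving out other arrays also ended some of these calls: NSHB2 had a limma adjusted p of 0.146 without mhz5, 0.0514 without WT and 0.1 without the mhz4 root ethylene array. With a pseudocount of 32 its limma adjusted p was 0.0607. GER3 had 0.085 without WT, and CIPK23 had 0.068 without mhz5, 0.0823 without mhz1 and 0.0999 without the mhz4 root ethylene array. Without mhz4 and WT limma called 0 of the 23237 probe sets (1982 at an unadjusted p under 0.05). That fit had 1 residual degree of freedom, so it cannot check these calls.

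In shoots, 0 root-low members rose and 2 fell in ethylene (14 and 7 at an unadjusted p under 0.05), where the background was 0.74% higher and 1.48% lower, and 1 of the 12 root-high members rose. This was a probe set with no gene name here, which rose by 1.30 ± 0.26 (SE, limma adjusted p = 0.0451), a call lost in 9 of its 14 alternatives, with adjusted p from 0.0336 to 0.552. GER3 fell by 0.79 (SE 0.13, limma adjusted p = 0.0229) and SAT1 fell by 0.58 (SE 0.10, limma adjusted p = 0.0261). Neither call held without mhz4 (limma adjusted p = 0.0988 and 0.0956), without mhz5 (0.127 and 0.153) or without WT (0.0555 and 0.0918). SAT1 also lost its call without the WT shoot air array (limma adjusted p = 0.069). The ethylene effect in roots minus that in shoots was called for 1 member, SAT1, at 0.92 ± 0.13 (limma adjusted p = 0.029), where 0.28% of all probe sets were called in that direction and 0.284% in the other. SAT1 read 80.9 in ethylene and 56.3 in air in mhz4 roots, against 136 in ethylene and 115 in air in WT roots, and 152 in ethylene and 198 in air in mhz4 shoots, against 47.9 in ethylene and 80.0 in air in WT shoots. Its ethylene value was the higher one in each of the 4 root genotypes and the lower one in each of the 3 shoot genotypes. The SAT1 probe set has a suffix that marks shared probes. Its call did not hold without any 1 of the 4 genotypes (limma adjusted p = 0.101 to 0.163) or without any of the 3 single arrays left out (0.0639 to 0.0708).

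None of the 9 bright abscisic acid genes, 4 carotenoid genes, 12 ethylene genes, 4 LEA genes, 25 cell wall genes or 3 photosynthesis genes of the other lists was a member. Only 0.497% of the bright probe sets were root-low and 0.0628% root-high members, so a count of 0 in such short lists says little. In the test of mhz5 against mhz1 roots, 3 of 12 abscisic acid genes tested were lower and 0 higher, and 0 of 13 diterpenoid genes were called in either direction. Over all probe sets 5.02% were lower and 2.01% higher in that test. Of 12 haemoglobin and low-oxygen genes tested, 4 rose and 0 fell in roots in ethylene, and 1 was higher and 0 lower in mhz5 than in mhz1 roots. Over all probe sets 2.13% rose and 2.78% fell in roots in ethylene. That list was drawn up after the values had been seen, and NSHB2 was counted in both contrasts.

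Members near the threshold differed little from probe sets that missed it. Just inside the root-low side were LOC4346441 and LOC4334643, whose smallest difference was 0.59 for each, and just outside were LOC4336108 and LOC4329795 at 0.58 for each. Just inside the root-high side were LOC4327230 at 0.59 and ILI6 at 0.60, and just outside were a probe set without a gene at 0.58 and CPS1 at 0.56. With a threshold of 1, which is a difference of 2-fold, 15 root-low and 3 root-high members remained, among them CPS4, CYP99A3, SAUR39, LOC4329723 and NSHB2.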

How the data were processed

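Signal intensity was deposited per probe set for 14 Affymetrix arrays, made with MAS5 per the submitters' processing notes. How the authors scaled the deposited intensity values is not given in the sources used here, and the number of arrays limits the precision. Controls (123 of 57381 probe sets) were left out, and log2(signal + 8) was computed without further scaling. By the platform's annotation 22436 probe sets match 1 gene, 95 match several and 34727 match none. A limma model (limma 3.58.1, R 4.3.3) with 7 genotype-by-tissue means and 2 ethylene terms was fitted to the 23237 probe sets with a signal of 50 on at least 2 arrays, with a trended prior and Benjamini-Hochberg adjustment over all of them. It had 5 residual degrees of freedom. For the ethylene terms, arrays of different genotypes stood in for replicates. In the 2 mhz5 contrasts each side was the mean of 1 array per gas. The p-values thus measure the spread between these arrays, and none holds a spread between samples of the same group. The script was tested on simulated data. Named genes were members with a gene name, those with the lowest adjusted p in each contrast, those next to the threshold and those of the gene lists. Members and lists were chosen with earlier results of these data known. Alternatives changed the pseudocount, scaling, filters, threshold and arrays, and 3 of them, each leaving out 1 array, were chosen after seeing the data.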

Additional observations from a re-analysis of the deposited data

Results flagged for a closer look

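The mhz4 effect had opposite signs in root and shoot for 95 members that were lower in mhz4 roots and for 12 that were higher there, on every pair of arrays. That difference between the tissues was not tested, since the rule fixes it. The ethylene effect on SAT1 differed between roots and shoots by 0.92 on the log2 scale (limma adjusted p = 0.029), in the test of the difference itself. That call did not hold when any 1 genotype was left out (limma adjusted p = 0.101 to 0.163).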

How the results depend on the processing

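No paired analysis was possible because every group holds 1 array and all carry replicate number 1, so the number pairs nothing; the ethylene terms themselves set the gases against each other within each genotype and tissue. The root-low members numbered 95 as reported, 79 with arrays scaled to the same trimmed mean and 68 after quantile normalization. They numbered 55 with a pseudocount of 32 and 15 with a threshold of 1. On the air arrays alone there were 316, and on the ethylene arrays alone 217. The root-high members numbered 12 as reported, 20 with arrays scaled to the same trimmed mean, 21 after quantile normalization, 3 with a threshold of 1, 118 on the air arrays alone and 33 on the ethylene arrays alone. Members called by limma for ethylene in roots numbered 14, against 7 to 15 with 1 genotype left out, 9 without the WT root air array and 0 without WT and mhz4 (32 at an unadjusted p under 0.05). For ethylene in shoots there were 3, against 6 with a pseudocount of 32, 6 with scaled arrays, 7 after quantile normalization and 0 to 3 with 1 genotype left out. For the ethylene effect in roots minus shoots there was 1, against 3 with a pseudocount of 32, 0 to 1 with 1 genotype left out and 0 without the WT root air array (13 unadjusted). For mhz5 against mhz1 in roots there were 27, against 15 to 29 with 1 genotype left out and 12 without WT and mhz4. Fewer arrays leave fewer residual degrees of freedom, and otherwise the cause was not tested. The fit without WT and mhz4 had only 1, so it cannot check the ethylene calls and is a weak check of mhz5 against mhz1. Of 274 alternatives for 21 results on single genes, 236 kept their side of the threshold, 38 lost the call and 0 changed direction. These losses fell on the ethylene calls and on mhz5 against mhz1 in roots, not on mhz5 root against shoot. The 21 results cover only genes with a gene name. Among other members, calls for mhz5 root against shoot were also lost, by LOC4352482 in 5 of 13 alternatives and LOC4351146 in 4. LOC4325763 lost its call in 2 and LOC4351076 in 1. For ethylene in roots NSHB2 lost its call in 7 of 14 alternatives, CIPK23 in 5 and GER3 in 3. In shoots GER3 lost it in 4 of 14 and SAT1 in 5. For roots minus shoots SAT1 lost it in 8 of 14.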
